A study of Mus musculus with 8 samples.

Results

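Genes that handle peroxide, glutathione and metal ions were compared in pancreatic islets of the mouse strains AKR/J and C57Bl/6J. The set holds 33 named genes, taken from the platform annotation by symbol, among 10891 genes that could be tested on these arrays. A probe set that names the gene alone was found for 29 of the 33, with 59 such probe sets in all. Of these 29 genes, 26 passed the filter on dim probe sets, which asked for detection on at least 4 of the 8 arrays, and each was represented by its probe set with the highest mean log2 value over the 8 arrays. Sod3, Gsta4 and Hmox1 did not pass the filter and were not tested. All 5 probe sets annotated with Prdx1 also name Gm21399, so their signal could not be assigned to Prdx1. Prdx5, Prdx6 and Ucp2 were not analysed here.

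Islets are the hormone-secreting cell clusters of the pancreas, and both inbred strains had eaten a high-fat diet for 3 months. There were 4 RNA samples of each strain, arrays 1 to 4 for AKR/J and arrays 5 to 8 for C57Bl/6J, each a pool of islets from 2 mice, and every pool was run on a separate Affymetrix array. Because all samples share the diet, the values compare strains and not diets. The sex and age of the mice were not given in the sources used here.

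Values are log2 intensities of the deposited GCRMA table, differences are AKR/J minus C57Bl/6J, and a gene was called at a limma p-value under 0.05 after Benjamini-Hochberg adjustment over 20772 probe sets. Between 43.7% and 48.1% of probe sets were detected per array, and arrays correlated at r = 0.985 to 0.993 within a strain and 0.966 to 0.975 between strains. The islet hormone transcripts Ins2, Gcg, Sst and Ppy were detected on all 8 arrays. Transcripts of other pancreatic cells differed between the strains on the same arrays. The counts that follow are to be set beside all 10891 genes tested, of which 7.79% were higher and 8.53% lower in AKR/J. Of 16 tested acinar genes, AKR/J had lower values by the test for 15 and higher values for 0, with a summed intensity of 250573 to 294370 in AKR/J, against 419491 to 427909 in C57Bl/6J. Of 13 macrophage genes, AKR/J had lower values by the test for 8 and higher values for 0, with sums of 1979 to 2494 in AKR/J, against 3450 to 4597 in C57Bl/6J. Of 8 endocrine genes, 2 were higher in AKR/J and 1 was lower (sums 211242 to 230160 in AKR/J, 178606 to 193088 in C57Bl/6J). Among 10 endothelial genes 4 were higher and 0 lower, among 9 fibroblast and pericyte genes 1 was higher and 2 lower, among 3 duct genes 0 were higher and 1 lower, and both tested fat cell genes were lower in AKR/J. In such bulk RNA, fewer cells of a type and less RNA per cell cannot be told apart.

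Cells remove superoxide with superoxide dismutases, which make hydrogen peroxide, and they remove the peroxide with catalase, glutathione peroxidases and peroxiredoxins. The peroxidases draw electrons from glutathione or thioredoxin, which glutathione reductase and thioredoxin reductase restore with NADPH. Glutathione transferases attach glutathione to reactive compounds, and metallothioneins are small cysteine-rich proteins that bind zinc and copper. Islet beta cells are known for low levels of catalase and glutathione peroxidase compared with liver.

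Of the 26 tested genes, 2 were higher in AKR/J, 6 were lower and 18 did not pass. An unadjusted limma p under 0.05 was found for 14 of the 26, and for 3590 of all 10891 genes. By the adjusted p, 7.79% of all 10891 genes were higher and 8.53% were lower, against 7.69% and 23.1% of the 26 genes. The 2 higher genes were Prdx2 and Gpx3, and the 6 lower genes were Gstm1, Gstm2, Gstp1, Gpx2, Gsr and Mt2. The median difference was -0.05 over the 26 genes and 0.00 over all genes tested. All 4 arrays of AKR/J lay above all 4 of C57Bl/6J for 3 of the genes and below them for 6, where 13.4% and 11.7% of all genes did so. The numbers that passed without 1 of the arrays ran from 1 to 3 for higher and from 4 to 6 for lower. Without array 1, 3, 4 or 8 a single gene, Prdx2, was higher in AKR/J, and without array 3, 4, 5 or 8 the lower genes numbered 4.

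**Figure D1:**
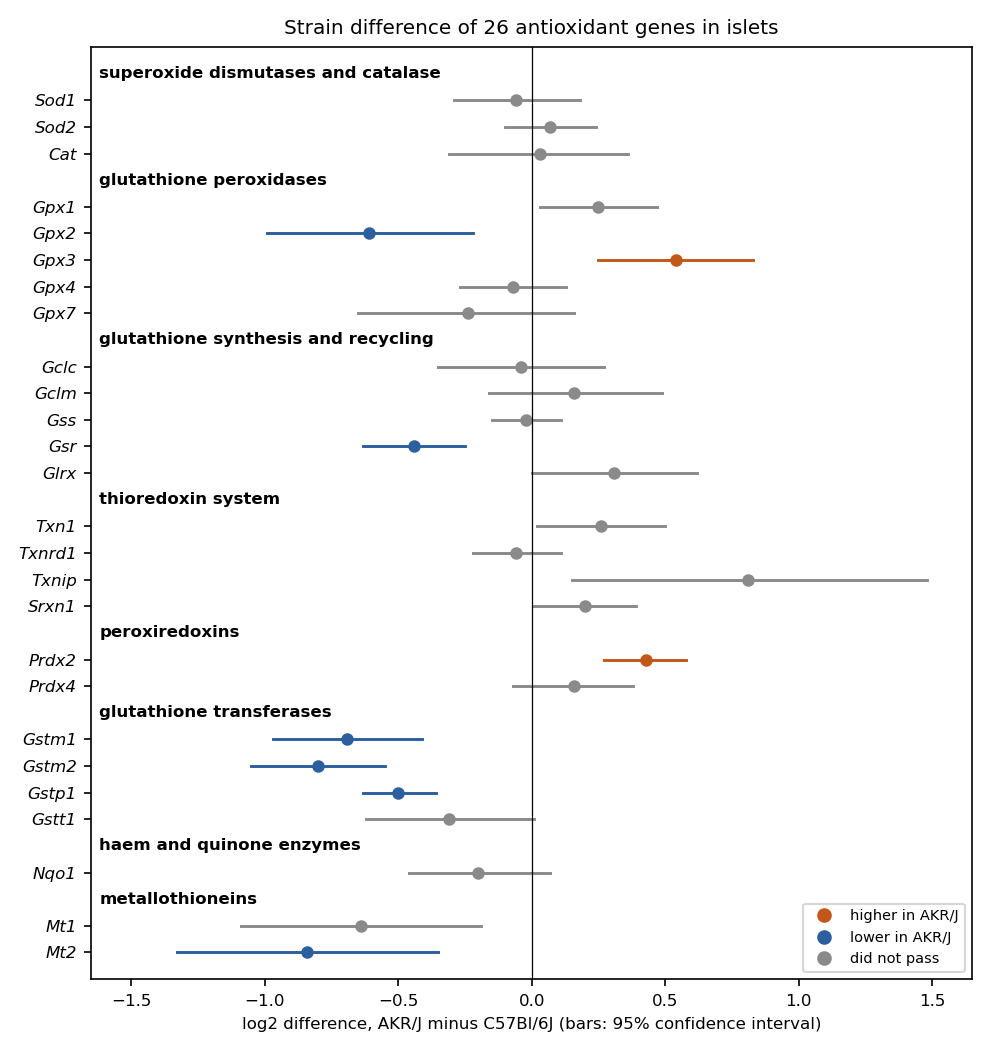
Strain differences of the 26 tested genes, in log2 units on the horizontal axis, grouped by family; points are differences, AKR/J minus C57Bl/6J, and bars are 95% confidence intervals. Each gene is shown by its brightest tested probe set. Prdx2 (0.43) and Gpx3 (0.54) lie to the right and were called higher in AKR/J, the 6 genes called lower run from -0.44 for Gsr to -0.84 for Mt2, and the other 18, in grey, did not pass.

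Of the superoxide dismutases and catalase none of the 3 tested genes passed in the limma fit, and 0 had an unadjusted p under 0.05. Sod1, the copper and zinc superoxide dismutase of the cytosol, was at 11.89 ± 0.14 in AKR/J, against 11.94 ± 0.15 in C57Bl/6J (SD, n = 4 each; difference -0.06, 95% confidence interval -0.29 to 0.18). Sod2, the manganese enzyme of mitochondria, was at 9.50 ± 0.05 in AKR/J, against 9.43 ± 0.11 in C57Bl/6J (difference 0.07, interval -0.10 to 0.24). Its other tested probe sets pointed the other way and did not pass either. One differed by -0.16 (adjusted p = 0.479). The other was at 6.35, 6.24, 6.59 and 6.42 in AKR/J, against 7.14, 6.74, 6.91 and 6.62 in C57Bl/6J, with no overlap (difference -0.45, interval -0.75 to -0.16, adjusted p = 0.0521). Catalase (Cat), which breaks down hydrogen peroxide in peroxisomes, was at 7.07 ± 0.11 in AKR/J, against 7.04 ± 0.30 in C57Bl/6J (difference 0.03, interval -0.31 to 0.36). Sod3, the secreted superoxide dismutase, was detected on 1 of 4 AKR/J arrays and 0 of 4 C57Bl/6J arrays by one probe set and on no array by the other, and was not tested.

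The glutathione peroxidases, which reduce peroxides with glutathione, split in direction. Gpx3, the peroxidase secreted into plasma, was at 12.45, 11.87, 12.16 and 12.26 on AKR/J arrays 1 to 4, against 11.65, 11.80, 11.60 and 11.53 on C57Bl/6J arrays 5 to 8. All AKR/J values lay above all C57Bl/6J values, and arrays 2 and 6 came closest. The difference was 0.54 ± 0.13 (SE), which is 1.46-fold higher in AKR/J (limma adjusted p = 0.0267). The call was lost without array 1, 3, 4, 5, 7 or 8 (adjusted p = 0.0514 to 0.0715) and with the deposited MAS5-type signals (difference 0.44, adjusted p = 0.0626), and with no filter on dim probe sets (adjusted p = 0.0692). Gpx2, best known from the gut epithelium, was at 6.81, 7.10, 6.79 and 6.34 in AKR/J, against 7.55, 7.11, 7.49 and 7.33 in C57Bl/6J. The strains did not overlap, but array 2 of AKR/J and array 6 of C57Bl/6J nearly met. Gpx2 was 1.53-fold lower in AKR/J (difference -0.61 ± 0.17, adjusted p = 0.0465). Leaving out array 1, 3, 4, 5, 7 or 8 ended this call (adjusted p = 0.0751 to 0.111). So did no filter on dim probe sets (adjusted p = 0.124), the MAS5-type signals (difference -0.44, adjusted p = 0.0693), quantile normalization (0.0667), centring (0.0582) and array weights (0.0526). Gpx1, the cytosolic and mitochondrial peroxidase, did not pass, at 11.89 ± 0.13 in AKR/J, against 11.64 ± 0.14 in C57Bl/6J (adjusted p = 0.124). Gpx4, which reduces lipid peroxides in membranes, differed by -0.07 (interval -0.27 to 0.13, adjusted p = 0.641). A second Gpx4 probe set pointed the other way without overlap of the strains, and did not pass (difference 0.20, interval 0.01 to 0.38, adjusted p = 0.146). Gpx7, a peroxidase of the endoplasmic reticulum, was detected on 2 AKR/J and 3 C57Bl/6J arrays and its values lay near the bottom of the range (2.67 ± 0.00 in AKR/J, 2.91 ± 0.39 in C57Bl/6J).

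Among the genes that make and recycle glutathione, Gsr, the glutathione reductase, was lower in AKR/J and the others did not pass. By its brighter probe set Gsr was at 7.11, 7.04, 7.16 and 7.07 on the AKR/J arrays and 7.71, 7.53, 7.36 and 7.53 on the C57Bl/6J arrays, with no overlap. The difference was -0.44 ± 0.08, or 1.35-fold lower in AKR/J (adjusted p = 0.0114), and it passed without each of the 8 arrays in turn (adjusted p at most 0.0364). The second probe set of Gsr, described further down, did not show this difference. Gclc and Gclm encode the catalytic and modifier subunits of glutamate-cysteine ligase, the rate-limiting enzyme of glutathione synthesis, and differed by -0.04 (interval -0.35 to 0.27) and 0.16 (interval -0.16 to 0.49). A second Gclc probe set, detected on 2 AKR/J and 4 C57Bl/6J arrays, did not pass (difference -0.34, interval -0.56 to -0.11, adjusted p = 0.0605). Gss, the glutathione synthetase, differed by -0.02 (interval -0.15 to 0.11). Its values were nearly flat, at 5.22 to 5.34, with a residual spread larger than that of only 1.93% of genes. The MAS5-type signals of Gss differed by 0.18 (limma adjusted p = 0.491). Glrx, the cytosolic glutaredoxin that removes glutathione from protein cysteines, was at 9.84 ± 0.11 in AKR/J, against 9.54 ± 0.26 in C57Bl/6J (difference 0.31, adjusted p = 0.164). A second Glrx probe set had 9.05 ± 0.10 in AKR/J, against 8.66 ± 0.15 in C57Bl/6J, and passed (difference 0.39 ± 0.09, adjusted p = 0.0274), and the disagreement between the pair did not pass (adjusted p = 0.698).

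None of the 4 thioredoxin genes passed by its brightest probe set in the limma fit. An unadjusted p under 0.05 was found for 3 of them, and for 3590 of all 10891 genes. The widest difference of the 4 was that of Txnip. Txnip, the thioredoxin-interacting protein, binds thioredoxin and is strongly induced by glucose in beta cells. It was at 13.48, 13.74, 12.82 and 13.02 in AKR/J, against 12.38, 13.12, 11.87 and 12.43 in C57Bl/6J. The strains overlapped, since C57Bl/6J array 6 lay above AKR/J arrays 3 and 4. The difference was 0.81 (interval 0.15 to 1.48, adjusted p = 0.103). Its residual spread between arrays of a strain, 0.47, was larger than that of 96.9% of the genes tested. In both strains the first 2 arrays averaged above the other 2, and the second Txnip probe set kept the same order, at 12.63, 12.79, 11.74 and 11.93 in AKR/J, against 11.28, 12.20, 10.30 and 11.33 in C57Bl/6J. With a block for arrays 1, 2, 5 and 6 against 3, 4, 7 and 8, the same difference passed (limma adjusted p = 0.0272). The labels do not name this split, which was seen in earlier results of these data, so this pass is no separate support. The Txnip difference also passed without array 6 (difference 1.03, adjusted p = 0.0454).

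Thioredoxin itself (Txn1) was at 11.76 ± 0.12 in AKR/J, against 11.50 ± 0.17 in C57Bl/6J, and did not pass (difference 0.26, adjusted p = 0.133; 0.0493 without array 5). Its reductase Txnrd1 differed by -0.06 (interval -0.22 to 0.11). Srxn1, the sulfiredoxin that repairs overoxidised peroxiredoxins, was at 8.54, 8.58, 8.81 and 8.71 in AKR/J, against 8.49, 8.51, 8.34 and 8.51 in C57Bl/6J. These values did not overlap, yet the difference of 0.20 did not pass (adjusted p = 0.146). A second Srxn1 probe set, at 7.40, 7.08, 7.28 and 7.34 in AKR/J, against 6.82, 6.73, 6.36 and 6.66 in C57Bl/6J, did pass (difference 0.63 ± 0.12, adjusted p = 0.00955). Its MAS5-type signals differed by 0.37 (adjusted p = 0.0336). Another Srxn1 probe set lay in between, with a difference of 0.39 (adjusted p = 0.113).

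Peroxiredoxins reduce peroxides with electrons from thioredoxin. Prdx2, a cytosolic peroxiredoxin, was at 11.05, 11.08, 10.94 and 11.01 in AKR/J, against 10.59, 10.59, 10.69 and 10.50 in C57Bl/6J by its brighter probe set. The strains were well apart, and the residual spread of 0.07 was larger than that of only 5.92% of genes. Prdx2 was 1.35-fold higher in AKR/J (difference 0.43 ± 0.07, adjusted p = 0.00463). It passed without each array in turn (adjusted p at most 0.0171), and its MAS5-type signals differed by 0.41 (adjusted p = 0.0313). The second probe set of Prdx2, described further down, had lower values in AKR/J. Prdx4, the peroxiredoxin of the endoplasmic reticulum, was at 10.95 ± 0.17 in AKR/J, against 10.80 ± 0.10 in C57Bl/6J, a difference of 0.16 that did not pass (adjusted p = 0.342). The 5 probe sets shared by Prdx1 and Gm21399 differed by -0.24 to 0.16, and none of the 5 passed in the limma fit (lowest adjusted p = 0.0958).

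Glutathione transferases were the family with the most calls. Of 5 listed members 4 were tested, 3 were lower in AKR/J, 0 were higher and 1 did not pass, where 8.53% of all genes tested were lower and 7.79% higher. Gstm2, a mu-class enzyme, was at 7.70, 7.60, 7.95 and 7.48 in AKR/J, against 8.41, 8.43, 8.62 and 8.46 in C57Bl/6J. No AKR/J array came near a C57Bl/6J array, and Gstm2 was 1.74-fold lower in AKR/J (difference -0.80 ± 0.11, limma adjusted p = 0.00245). Gstm1, its neighbour in the RefSeq gene order, was at 8.31, 8.18, 8.43 and 8.58 in AKR/J, against 8.78, 9.14, 9.22 and 9.11 in C57Bl/6J. It was 1.61-fold lower in AKR/J (difference -0.69 ± 0.12, adjusted p = 0.00878), and a second Gstm1 probe set gave -0.60 (adjusted p = 0.0265). With the MAS5-type signals the first Gstm1 probe set differed by -0.26 and did not pass (adjusted p = 0.385), and the second by -0.43 (adjusted p = 0.0604). Mu-class genes are close relatives, so a probe set of one can take signal from another.

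Gstp1, the pi-class enzyme, had the tightest values of the family, at 11.08, 11.04, 11.09 and 11.14 in AKR/J, against 11.57, 11.54, 11.57 and 11.66 in C57Bl/6J. Its difference was -0.50 ± 0.06, or 1.41-fold lower in AKR/J (adjusted p = 0.00139), and close copies of it (Gstp2 and Gstp3) follow it in the RefSeq gene order. Gstm1, Gstm2 and Gstp1 each still passed when any 1 of the 8 arrays was left out (adjusted p at most 0.0289). The theta-class gene Gstt1 was at 8.29 ± 0.11 in AKR/J, against 8.60 ± 0.27 in C57Bl/6J, and did not pass (difference -0.31, adjusted p = 0.176). Gsta4, an alpha-class enzyme that clears lipid peroxidation products, was detected on 0 of 8 arrays. Acinar and macrophage transcripts were lower in AKR/J on the same arrays, by the counts and sums given above, and their part in the transferase values was not tested.

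Further transferases and related enzymes, taken from a list of 20 genes outside the set, held further calls in both directions. Of 12 tested, AKR/J had lower values for 3 and a higher value for 1, while 8 did not pass. Over all genes tested, 8.53% were lower and 7.79% were higher. Mgst1, a membrane-bound transferase, was at 7.17 ± 0.27 in AKR/J, against 8.15 ± 0.40 in C57Bl/6J (1.97-fold lower, adjusted p = 0.0202). Gstk1, the kappa-class enzyme of mitochondria and peroxisomes, was at 5.54 ± 0.15 in AKR/J, against 6.14 ± 0.07 in C57Bl/6J (1.51-fold lower, adjusted p = 0.00355). Hpgds, the prostaglandin D synthase of blood-derived cells, was at 3.84 ± 0.01 in AKR/J, against 4.44 ± 0.30 in C57Bl/6J (adjusted p = 0.0263). It was detected on all 8 arrays, but its AKR/J values were nearly equal and low, so no fold is given. Gstm5 was the exception, at 9.75 ± 0.23 in AKR/J, against 9.23 ± 0.09 in C57Bl/6J (difference 0.51 ± 0.12, adjusted p = 0.0234), while Gstm4, which adjoins Gstm1, differed by 0.01 (interval -0.14 to 0.15).

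**Figure D2:**
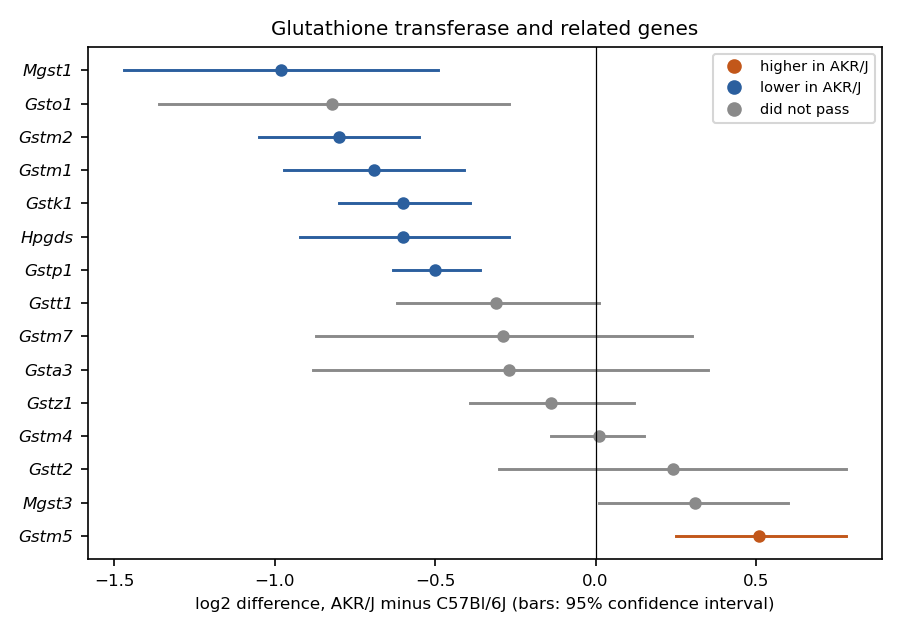
Strain differences of 15 tested glutathione transferase and related genes, sorted, on a log2 scale; points are AKR/J minus C57Bl/6J and bars 95% confidence intervals. The 6 genes called lower in AKR/J, in blue, run from -0.50 for Gstp1 to -0.98 for Mgst1, and Gstm5, in orange at 0.51, is the one called higher.

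Nqo1, a quinone reductase and a well-known target of the transcription factor NRF2, stayed near the bottom of the range, at 3.18 ± 0.00 in AKR/J, against 3.37 ± 0.24 in C57Bl/6J (adjusted p = 0.299). Hmox1, the inducible haem oxygenase, was detected on 1 array of each strain, with values of 4.47 to 5.17 in AKR/J, against 4.41 to 4.74 in C57Bl/6J, and was not tested.

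The metallothionein genes Mt1 and Mt2 lie next to each other and are induced by zinc and other metals through the factor MTF1, which binds metal response elements. Their RefSeq promoter windows (GRCm38.p6, 250 bases before to 50 after the annotated start) are shown because Mt2 was called lower in AKR/J and Mt1, which was not called, is its neighbour. Capitals mark the core letters of the element, TGCACNC or TGCGCNC, on either strand.

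Mt2, chr8:94172368-94172667, plus strand: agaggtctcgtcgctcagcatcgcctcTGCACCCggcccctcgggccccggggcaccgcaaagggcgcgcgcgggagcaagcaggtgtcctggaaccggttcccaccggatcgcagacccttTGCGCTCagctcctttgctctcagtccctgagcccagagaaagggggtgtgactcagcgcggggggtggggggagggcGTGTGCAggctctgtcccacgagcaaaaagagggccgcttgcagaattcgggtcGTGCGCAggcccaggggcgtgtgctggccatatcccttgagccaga
Mt1, chr8:94178839-94179138, plus strand: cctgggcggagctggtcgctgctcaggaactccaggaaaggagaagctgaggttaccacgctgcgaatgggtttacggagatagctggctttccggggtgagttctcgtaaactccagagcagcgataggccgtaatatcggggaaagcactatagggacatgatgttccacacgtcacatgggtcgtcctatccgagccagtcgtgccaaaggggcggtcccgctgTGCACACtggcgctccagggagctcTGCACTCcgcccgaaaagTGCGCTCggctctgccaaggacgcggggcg

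The Mt2 window holds 4 such cores, 2 on each strand, and the Mt1 window holds 3, all on the strand shown. Of 32851 promoter windows in the same table, 25.7% hold at least 1 core and 1.97% hold at least 3. Of the 24 tested members with a window 10 held at least 1 core and 3 held at least 3, the other being Gclm, which did not pass. A member with several windows counted by the window with the most cores, whereas the shares are per single window. A match of letters is a description and shows no binding.

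Mt2 was at 10.65, 10.15, 9.92 and 9.90 in AKR/J, against 10.98, 11.44, 10.65 and 10.91 in C57Bl/6J. The highest AKR/J array, 1, met the lowest C57Bl/6J array, 7, at 10.65 to 2 decimals. Mt2 was 1.79-fold lower in AKR/J (difference -0.84 ± 0.21, adjusted p = 0.0343). The call was lost without array 2, 3, 4, 5, 6 or 8 (adjusted p = 0.0646 to 0.0885), and with no filter on dim probe sets (0.103). Mt1 was at 12.67, 12.17, 12.10 and 12.12 in AKR/J, against 12.87, 13.29, 12.46 and 12.97 in C57Bl/6J, and did not pass (difference -0.64, interval -1.09 to -0.19, adjusted p = 0.0667). For Mt1, AKR/J array 1 lay above C57Bl/6J array 7, and without either of these arrays the difference passed (-0.77, adjusted p = 0.042 without array 1; -0.78, adjusted p = 0.0295 without array 7). In both genes array 1 was the highest AKR/J array, array 6 the highest and array 7 the lowest C57Bl/6J array. Mt1 passed in 6 of 11 alternative settings, among them the array split as a block (-0.64, adjusted p = 0.037) and the MAS5-type signals (-0.69, adjusted p = 0.0303). The block was taken from earlier results of these data, so the pass with it is no separate support. The MAS5-type signals passed for Mt2 too (-0.77, adjusted p = 0.0184). A second Mt1 probe set differed by -0.60, with overlapping strains, and did not pass (limma adjusted p = 0.211). Its MAS5-type signals did not pass either (-0.42, adjusted p = 0.384). Acinar transcripts were also lower on the AKR/J arrays, by the sums given above, and their part in the metallothionein difference was not tested.

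**Figure D3:**
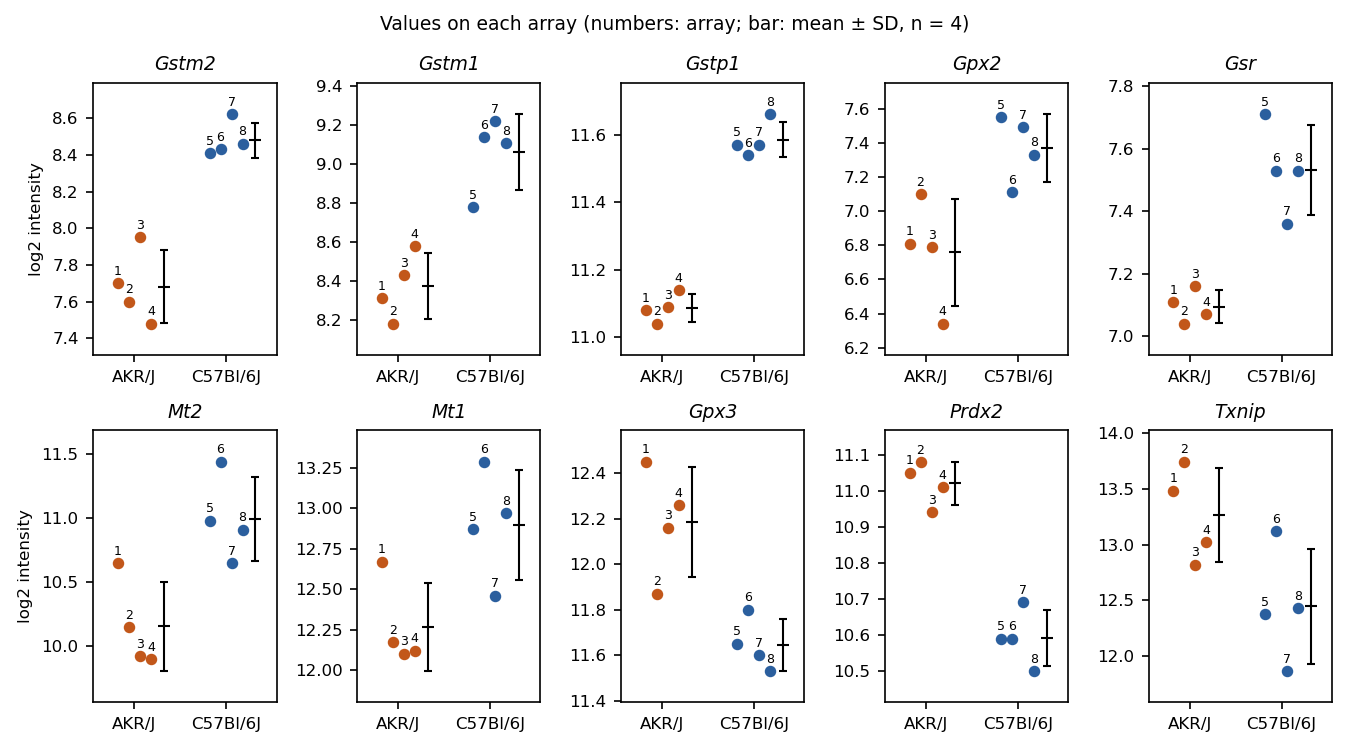
Log2 intensity on each array for the 8 called genes and for Mt1 and Txnip, AKR/J in orange on the left and C57Bl/6J in blue on the right of each panel; numbers give the array and black bars the mean ± SD (n = 4). By the brightest probe set, Gstm2, Gstm1, Gstp1, Gsr and Prdx2 show a clear gap between strains, whereas Mt2 meets at 10.65 and Txnip overlaps.

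The antioxidant response element, through which NRF2 acts, was looked for by its core TGACNNNGC on both strands of the same windows. Of the 26 tested genes 24 had a window and 5 of these held the core, and over all windows 12.4% did. A gene with several windows, such as Txnrd1, counted if any of them held the core. The share over all windows is per single window, so the measures are not alike. The 5 stretches are shown with the core in capitals, so that they can be set beside the values of their genes.

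Sod1, chr16:90220698-90220722, plus strand: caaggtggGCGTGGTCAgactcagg
Gclm, chr3:122245415-122245439, plus strand: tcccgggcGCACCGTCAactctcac
Srxn1, chr2:152105544-152105568, plus strand: agtgggcaGCTAGGTCAgagtgaga
Txnrd1, chr10:82859106-82859130, plus strand: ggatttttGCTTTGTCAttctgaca
Mt2, chr8:94172531-94172555, plus strand: agggggtgTGACTCAGCgcgggggg

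Of these 5 genes Mt2 was called lower in AKR/J, and Sod1, Gclm, Srxn1 and Txnrd1 did not pass by the probe set that represents them. The windows of Gstm1, Gstm2 and Gstp1 held no such core, which says only that these letters are not in those 300 bases.

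Grouped by where the proteins are mainly found, the calls were spread as follows. Of 21 tested genes for cytosolic proteins, 1 was higher in AKR/J, 6 were lower and 14 did not pass, with a median difference of -0.06. The shares were 4.76% higher and 28.6% lower, against 7.79% and 8.53% of all genes tested. The 6 lower genes are those already counted for the whole set. Of the secreted enzymes Gpx3 alone was tested, and it was higher in AKR/J. Sod2 was the one mitochondrial member tested, and Cat the one peroxisomal member, and neither passed by its brightest probe set. Of the endoplasmic reticulum enzymes Prdx4 and Gpx7 were tested and did not pass (differences 0.16 and -0.24). With 1 or 2 tested genes outside the cytosol in each group, no difference between compartments could be tested. Mitochondrial counterparts from the wider pathway lists gave a further view. The peroxiredoxin Prdx3 was at 7.63 ± 0.15 in AKR/J, against 7.84 ± 0.08 in C57Bl/6J (difference -0.21, adjusted p = 0.155), the thioredoxin Txn2 at 8.10 ± 0.05 in AKR/J, against 7.94 ± 0.06 in C57Bl/6J (difference 0.16, adjusted p = 0.134), and the reductase Txnrd2 differed by 0.07 (adjusted p = 0.531). Glrx2, the glutaredoxin of mitochondria, was at 9.03 ± 0.08 in AKR/J, against 8.68 ± 0.15 in C57Bl/6J, and passed (difference 0.35 ± 0.09, adjusted p = 0.0356).

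Probe sets of the same gene gave different answers for Prdx2 and Gsr. The within-array difference between a gene's 2 brightest tested probe sets was compared between strains for all 4674 genes with at least 2, and 7.06% of them passed. Of 15 members with 2 tested probe sets, 2 passed, Prdx2 and Gsr. The second Prdx2 probe set was at 3.36, 3.41, 4.12 and 3.38 in AKR/J, where it was detected on 1 of 4 arrays, and at 7.27, 7.03, 7.51 and 7.30 in C57Bl/6J, where it was detected on all 4. All AKR/J values lay far below all C57Bl/6J values, the opposite order to the brighter probe set. This probe set passed the filter through C57Bl/6J, where it was high, and in AKR/J it lay near background. The sizes of its fitted difference (-3.71, limma adjusted p = 1.7e-05) and of the disagreement (4.14, limma adjusted p = 5.55e-07) are thus not exact. Both p-values rest on the strain that let the probe set through the filter, so they are no separate support for a Prdx2 difference. The MAS5-type signals differed in the same directions, and with detection on all 8 arrays required the pair was not tested.

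For Gsr the second probe set was at 7.21, 7.05, 7.06 and 7.15 in AKR/J, against 7.02, 7.09, 7.06 and 7.15 in C57Bl/6J, and the strains overlapped throughout (difference 0.04, adjusted p = 0.752). The disagreement with the brighter probe set was -0.47 ± 0.12 (adjusted p = 0.0397), larger than that of 86.5% of genes. It did not pass without array 1, 2, 4, 5, 6 or 8 (adjusted p = 0.0648 to 0.0997). For the 2 Srxn1 probe sets it was -0.43 and did not pass (adjusted p = 0.0657). The other 12 pairs had adjusted p of 0.18 or more, and these included Txnip, Mt1 and Gstm1, whose pairs differed between strains by -0.19, -0.04 and -0.09. Over all genes the median size of the disagreement was 0.18. The values do not tell a difference in transcript level or form from a sequence difference under the probes, and for Prdx2 and Gsr these cannot be told apart here.

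**Figure D4:**
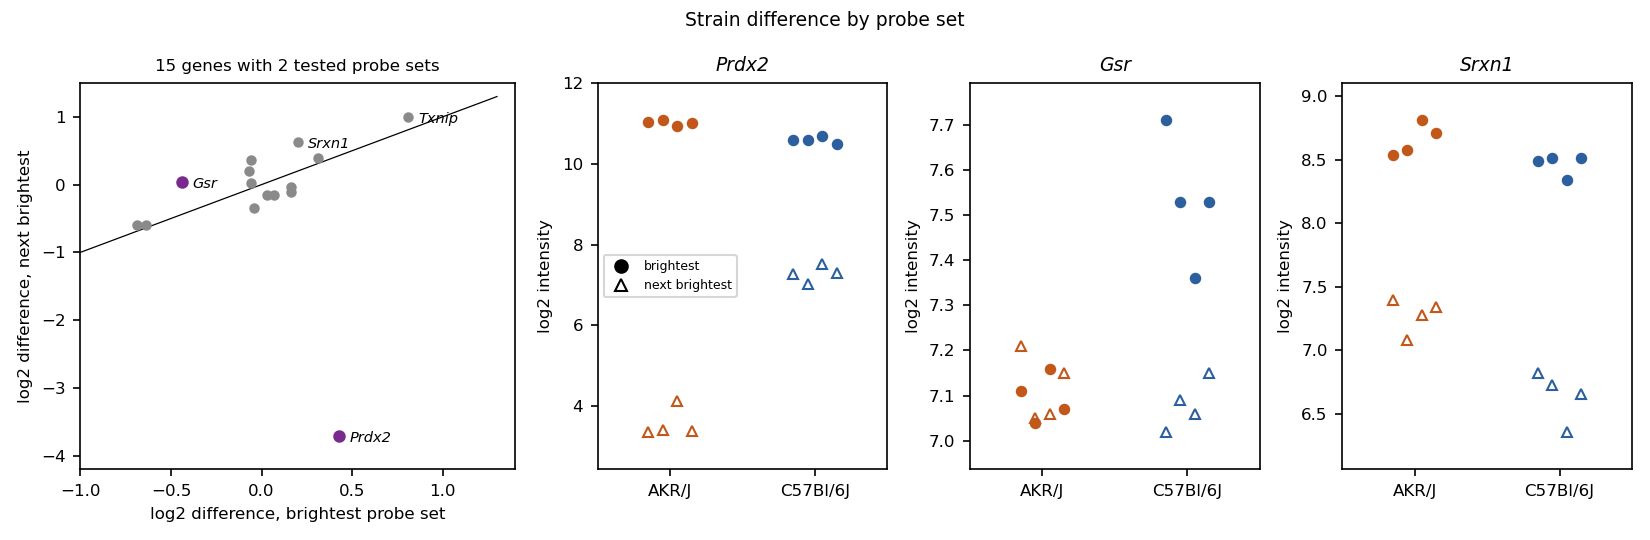
Left, the strain difference of the brightest probe set (horizontal) against that of the next brightest (vertical), both log2, for the 15 genes with 2 tested probe sets, with the line of equality. Right, log2 intensity per array of both probe sets of Prdx2, Gsr and Srxn1 (filled circles brightest, open triangles next brightest); Prdx2 falls far below the line, and its open triangles in AKR/J lie near background.

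Counted by probe set, 47 of the 59 were tested, 4 were higher in AKR/J (6.59% of all probe sets tested were) and 8 were lower (7.7% of all were), together 25.5% against 14.3% of all 20772. Probe sets of 1 gene share its transcripts and are not independent of each other. The lower ones include the dim Prdx2 probe set, which passed the filter through C57Bl/6J, and both tested Gstm1 probe sets. Using the mean of all tested probe sets in place of the brightest turned the sign of the Prdx2 difference, at a size (-1.64) set by the probe set near background in AKR/J. It lost the call of Gsr (-0.20, adjusted p = 0.0634) and brought in Srxn1 (0.41, adjusted p = 0.0246).

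Other genes of the pathways, 89 in all, gave counts near the background of 7.79% higher and 8.53% lower over all genes tested. Of 67 tested, AKR/J had higher values for 5 and lower values for 4 by the test, with a median difference of 0.00. The count of higher genes was 1 without array 1, 2 or 4, 2 without array 5, 6 or 7, and 3 without array 3, and that of lower genes was 2 without array 2 or 5. The lists that follow are short, so single calls in a list are not set apart from the background over all genes. Counts of unadjusted p under 0.05 in these lists are to be set beside 3590 of all 10891 genes. Among 7 tested regulators of NRF2 signalling none passed in the limma fit, and 3 had an unadjusted p under 0.05. Their brightest, Sqstm1, which encodes a protein that binds KEAP1, differed by 0.19 (adjusted p = 0.205). Nfe2l2, which encodes NRF2, differed by -0.10 (adjusted p = 0.599), and its repressor Keap1 by 0.24 (adjusted p = 0.104). Of 10 genes for glutathione supply and breakdown 1 was higher, Ggt7 of the gamma-glutamyltransferase family (6.58 ± 0.14 in AKR/J, against 6.21 ± 0.15 in C57Bl/6J, adjusted p = 0.0478), and 0 were lower. Of 13 further thioredoxin, glutaredoxin and methionine sulfoxide genes 1 was higher, which was Glrx2, and 0 were lower.

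Of 5 genes that supply NADPH in the cytosol, 1 was higher in AKR/J and 0 were lower. It was Me1, the cytosolic malic enzyme, at 7.42 ± 0.17 in AKR/J, against 6.68 ± 0.27 in C57Bl/6J (difference 0.74 ± 0.15, adjusted p = 0.0135). None of 11 other NRF2 targets and iron or haem genes passed, and 3 had an unadjusted p under 0.05. Their brightest, the ferritin heavy chain gene Fth1, was at 13.53 ± 0.07 in AKR/J, against 13.69 ± 0.04 in C57Bl/6J (adjusted p = 0.121). None of 4 metal-handling genes passed, though 2 had an unadjusted p under 0.05, and their brightest was the granule zinc transporter gene Slc30a8, at 12.65 ± 0.14 in AKR/J, against 12.96 ± 0.13 in C57Bl/6J (adjusted p = 0.0672). Of 5 sources of superoxide or peroxide 1 was higher and 1 lower. Xdh, xanthine dehydrogenase, was at 5.71 ± 0.09 in AKR/J, against 5.17 ± 0.26 in C57Bl/6J (difference 0.53 ± 0.13, adjusted p = 0.0312). Cybb, the catalytic subunit of the phagocyte NADPH oxidase, was at 5.05 ± 0.37 in AKR/J, against 6.23 ± 0.18 in C57Bl/6J (2.27-fold lower, adjusted p = 0.00444). Of the macrophage markers, 8 of 13 were lower in AKR/J on the same arrays, and their part in the Cybb difference was not tested.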

How the data were processed

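Islet RNA from 4 AKR/J and 4 C57Bl/6J pools was grouped by the strain in the titles. The intensity values of the series table are linear, and the authors obtained them by GCRMA according to the submitters' processing notes (version not given in the sources used here). Signals of MAS5 type, with a detection p-value, are in the per-array files deposited by the authors. The series table was log2-transformed without further normalization. After 64 controls were left out, 34945 probe sets carried 1 gene symbol. Strain differences, and the disagreement of probe sets, were fitted with lmFit and eBayes of limma 3.58.1 (R 4.3.3), and figures drawn with matplotlib 3.10.9 (Python 3.11.15). A strain difference in sequence under a probe also changes its signal.

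Members that passed, members whose probe sets disagreed, and Prdx2 and Gsr are given by array, and other members by means, range or count. Of each other pathway list at most 4 genes that passed are named, by rising p, or else the single brightest, and at most 4 genes of a marker list. The array values of Txnip, Mt1 and Srxn1, and the genes Nfe2l2, Keap1, Gstm4, Prdx3, Txn2 and Txnrd2, were chosen after their values were seen. The members and lists were chosen with earlier results of these data known. Because each replicate is a pool of mice, p-values reflect only how pools vary, and the number of arrays limits precision. Alternatives were other filters, the MAS5-type signals, quantile normalization, centring, other variance models, array weights, other probe set rules, an unlabelled array split as a block, and leaving out each array. The array split was taken from earlier results of these data. Tested on simulated data for the strain comparison over 20772 probe sets, the fit found 44.8% of 1.5-fold, 79.1% of 2-fold and 97.0% of 4-fold changes.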

Additional observations from a re-analysis of the deposited data

Results flagged for a closer look

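Of 94 groups of 4 arrays (47 tested probe sets in each strain), 6 held an array whose gap to the nearest other exceeded Dixon's 95% critical value, and chance marks about 1 in 20. Array 7 of C57Bl/6J was apart for a second Sod2 probe set (9.38, against 8.78 to 8.86 on the other arrays), for Gclc (7.84, against 8.28 to 8.35) and for Srxn1 (8.34, against 8.49 to 8.51). Array 3 of AKR/J was apart for Gss (5.22, against 5.31 to 5.32) and for the dim Prdx2 probe set (4.12, against 3.36 to 3.41). Array 1 of AKR/J was apart for Mt1 (12.67, against 12.10 to 12.17).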

How the results depend on the processing

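Gstm2 and Gstp1 passed in the same direction under every alternative in which they were tested, Gstm1 under all but the MAS5-type signals, and Gsr under all but the mean of its probe sets. Prdx2 was not tested without the _x_at, _s_at and _a_at probe sets. It passed upward under all other alternatives but the mean of its probe sets, where its difference was -1.64. The size of that difference was set by a probe set near background in AKR/J. Of the 26 tested members, 22 had the same sign with the MAS5-type signals. The members higher in AKR/J numbered 1 with no filter on dim probe sets and 1 with the MAS5-type signals, against 2, and without single arrays 1 to 3. Those lower in AKR/J numbered 4 to 7 under all alternatives, against 6. The median difference, -0.05, was 0.00 after centring on array medians or without the _x_at, _s_at and _a_at probe sets (22 members), -0.12 with the mean of probe sets, and -0.05 to -0.01 without single arrays. Other pathway genes higher in AKR/J numbered 1 with no filter and 1 with the MAS5-type signals, against 5, and 1 to 4 without single arrays. Those lower numbered 2 with no filter, 7 with detection on all 8 arrays, and 8 each with trend and robust variance, with the mean of probe sets and with adjustment over 1 probe set per gene (an alternative chosen after seeing the data), against 4, and 2 to 5 without single arrays. Of the members whose 2 brightest probe sets disagree, 1 passed with detection on all 8 arrays (11 pairs, without that of Prdx2), against 2, and 1 to 2 without single arrays; this test was not run with the other probe set rules. Over all genes, 575 to 772 were higher and 612 to 893 lower without single arrays, against 848 and 929. Where the causes of these shifts are not plain from fewer probe sets or arrays, the cause was not tested. No paired analysis was possible because the replicate numbers are not shared between the strains. Dim probe sets (Nqo1, Gpx7, Hmox1) limit what their values can show.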
